A study of Mus musculus with 6 samples.

Results

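The Ly6 genes studied here were 9 members of 1 family that lie together on mouse chromosome 15: Ly6a, Ly6c1, Ly6c2, Ly6d, Ly6e, Ly6g, Ly6h, Ly6i and Ly6k. They were 9 of the 53843 genes of the GENCODE annotation on chromosomes 1 to 19 and X, and each was followed with the peaks of open chromatin that touched the gene or the 20 kb on either side. Of the 11800 peaks in 6 deposited lists, 16 lay near these genes. The genes were picked because peaks of these lists were known to lie there, so the number of peaks is a description and was not tested.

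Open chromatin was mapped by ATAC-seq, an assay whose transposase inserts adapters where DNA is accessible, in monocytic myeloid-derived suppressor cells (M-MDSCs) from wild-type female C57BL/6 J mice, with no further allele named. The tumors were Hepa 1-6 cells, a mouse hepatoma line, grown in the liver, and mice were taken into the experiment by their proportion of MDSCs in blood. After this, mice received vehicle, MS-275 or CXD101 by daily intraperitoneal injection, both inhibitors at one dose per body weight. MS-275 and CXD101 inhibit the histone deacetylases HDAC1, HDAC2 and HDAC3, which remove acetyl groups from histones. Each of the 3 groups had 2 libraries, 6 in all. Peaks were called on the 2 libraries of each group taken as one pool, so no peak has a value per library, and none of the differences below has a replicate check or an error between animals. Changes between groups in the makeup of the sorted cells cannot be told apart from changes within cells.

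Ly6 proteins are small, cysteine-rich proteins that are held on the outer face of the cell by a lipid anchor, and several serve as markers for leukocytes. Ly-6C, the product of Ly6c1 and Ly6c2, marks inflammatory monocytes, and Ly-6G, the product of Ly6g, marks neutrophils. Ly6a encodes Sca-1, a marker of hematopoietic stem cells that is also induced by interferon. The M-MDSCs were themselves sorted as CD11b+ cells with high Ly-6C and no Ly-6G, and this gate was the same in all groups. The cells compared had therefore been chosen by the protein products of 3 of the 9 genes, which limits what a difference at Ly6c1, Ly6c2 or Ly6g can say about the unsorted cells of the tumor.

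Each list names a first group and a second group, and a peak is a site where the pooled first group had more signal. MS-275 gained and MS-275 lost mean MS-275 over vehicle and the reverse, CXD101 gained and CXD101 lost are named likewise, and 2 direct lists compare the inhibitors with each other. Fold enrichment is the pileup of the first group at the summit over the local level of the second, or control, group. It is a linear ratio, taken after 1 is added to each. The p-value is that of a Poisson test on the pooled reads. Such a p-value compares these pooled libraries and not the treatments. A q-value of 0.05 is where each list stops. The tags (counted reads) behind each peak were recovered from its fold enrichment and p-value, and those of MS-275 and CXD101 are given at the depth of the vehicle group unless stated otherwise. The level of a control group is the highest of several local averages and so is an upper estimate of its pileup at the summit.

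The sites that carried the findings are shown first. The following lines give 200 bases around the summit of the MS-275 gained site with the most tags among the 12 in the windows, chr15:74988851-74989050, and of the site with the highest fold enrichment among those 12, chr15:75117410-75117609, which lay upstream of Ly6c2. Both are read 5′ to 3′ on the plus strand of mm10, and neither holds a match to the motifs searched, so no base is in capitals.
Upstream of Ly6i: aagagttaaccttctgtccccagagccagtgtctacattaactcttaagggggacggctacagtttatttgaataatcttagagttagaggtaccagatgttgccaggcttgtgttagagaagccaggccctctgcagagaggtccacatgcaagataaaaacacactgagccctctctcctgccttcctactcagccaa
Upstream of Ly6c2: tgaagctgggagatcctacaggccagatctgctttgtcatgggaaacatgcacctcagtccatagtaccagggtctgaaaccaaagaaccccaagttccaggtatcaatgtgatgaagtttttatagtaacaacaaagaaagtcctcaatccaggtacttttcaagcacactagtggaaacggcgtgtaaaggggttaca

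The summit region upstream of Ly6c1, chr15:75048959-75049134 (plus strand, mm10), is shown because nearly the same letters stand upstream of Ly6a. Aligned to the Ly6a copy over 177 positions, it matched at 172 (97.2%), with 4 mismatches and 1 gap. Capitals mark the bases at which this sequence differs from the Ly6a copy.
Upstream of Ly6c1: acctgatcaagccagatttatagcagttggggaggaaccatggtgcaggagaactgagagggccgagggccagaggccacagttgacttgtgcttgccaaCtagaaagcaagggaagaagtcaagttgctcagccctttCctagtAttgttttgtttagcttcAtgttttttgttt

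A pair of sites upstream of Ly6g is shown because they are related and both carry an AP-1 motif. One is chr15:75138027-75138186 on the plus strand and the other is chr15:75153006-75153205 on the minus strand, both in mm10, and with one of them reversed they matched at 140 of 200 aligned positions (70%). Capitals mark matches to the motifs searched, here AP-1 (TGANTCA).
Upstream of Ly6g, far: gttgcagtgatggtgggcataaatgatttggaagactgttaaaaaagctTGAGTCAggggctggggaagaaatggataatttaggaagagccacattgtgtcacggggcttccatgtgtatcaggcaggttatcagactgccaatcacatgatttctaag
Upstream of Ly6g, near: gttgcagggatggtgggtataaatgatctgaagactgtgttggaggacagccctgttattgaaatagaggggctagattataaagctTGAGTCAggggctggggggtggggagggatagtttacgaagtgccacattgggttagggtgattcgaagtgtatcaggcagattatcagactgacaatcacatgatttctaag

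Near the 9 genes there were 12 MS-275 gained peaks, in 10 separate intervals, and 4 peaks with more signal in MS-275 than in CXD101. There were 0 MS-275 lost, 0 CXD101 gained, 0 CXD101 lost and 0 CXD101 over MS-275 peaks. Among the genes, 6 of 9 had an MS-275 gained peak, against 13.7% of all annotated genes and 18.8% of the protein-coding genes under the same rule. In the direct list, 4 of 9 had an MS-275 over CXD101 peak, against 4.71% of all genes. For the lists with 0 of 9 genes, the share of all genes was 1.95% for MS-275 lost, 0.713% for CXD101 gained, 2.33% for CXD101 lost and 0.00743% for CXD101 over MS-275. Among protein-coding genes alone the shares were 6.68% for MS-275 over CXD101, 2.93% for MS-275 lost, 0.97% for CXD101 gained, 3.65% for CXD101 lost and 0.0138% for CXD101 over MS-275. These backgrounds are near 0 as well, so the absence of CXD101 peaks is not a result about the Ly6 genes. The paper reports more peaks over vehicle for both inhibitors than the deposited lists hold. Why the numbers differ was not tested. All counts and shares here hold for the deposited lists only, and the absence of a CXD101 peak from them does not measure the CXD101 response. In terms of peaks, 0 of the 284 CXD101 gained peaks lay near the genes, which allows a share of up to 1.06%, and 0 of the 691 MS-275 lost peaks allow up to 0.434%. These limits cover counting error only.

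**Figure D1:**
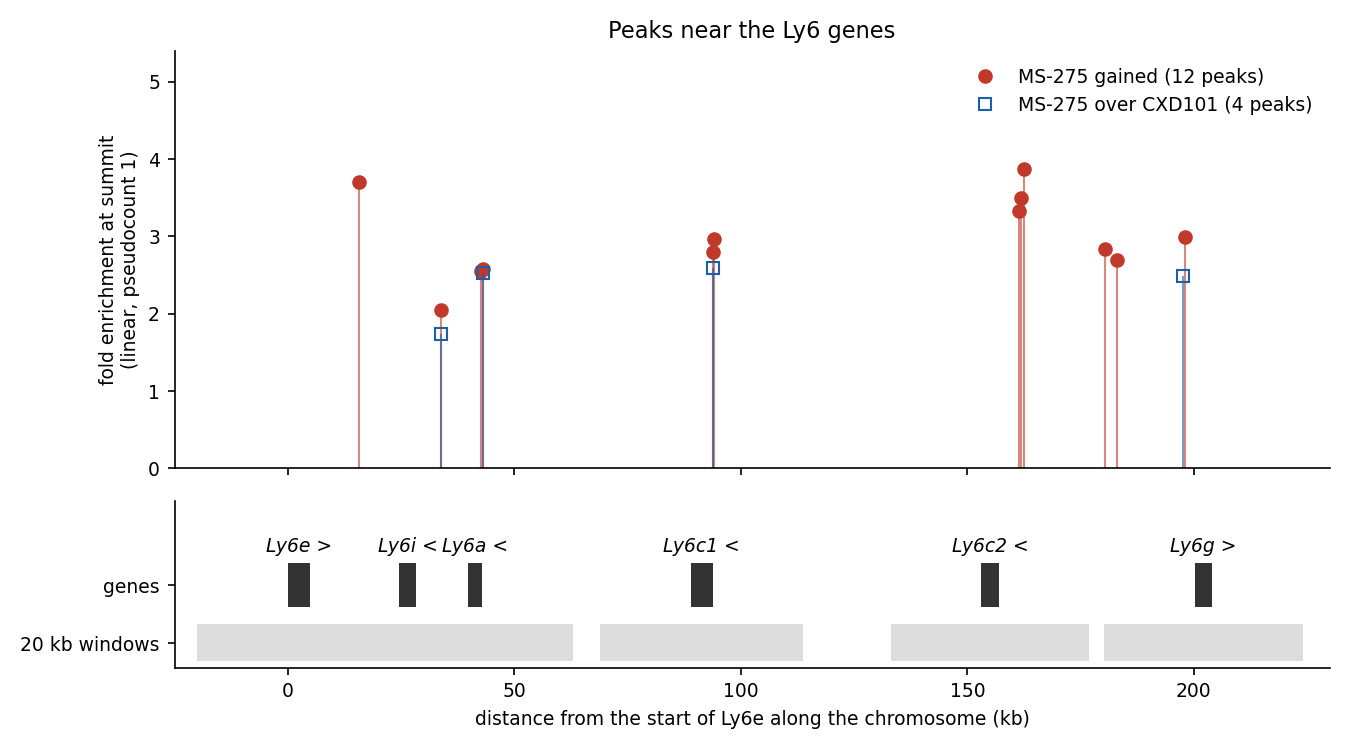
Map of the peaks near the 6 Ly6 genes that had one. The horizontal axis is the distance in kb from the start of Ly6e, the vertical axis is the linear fold enrichment at the summit, filled circles are the 12 MS-275 gained peaks, open squares the 4 MS-275 over CXD101 peaks, black boxes the genes with their direction, and grey bars the 20 kb windows. All MS-275 gained peaks lay between 2.05-fold and 3.87-fold, and each square stands beside a circle.

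The windows of the 9 genes covered 349 kb once overlaps were merged. MS-275 gained peaks stood there at 34.3 per Mb, against 3.31 per Mb over the assembled genome, and MS-275 over CXD101 peaks at 11.4 per Mb against 0.645. Since the genes were picked for having peaks, these densities describe the choice and support nothing further. The peaks did not stand out in size within their list. Their median fold enrichment was 2.90 (range 2.05 to 3.87, n = 12) beside a median of 2.88 over all 8480 MS-275 gained peaks, and their median −log10 p-value was 11.3 beside 10.3. The median MS-275 signal was 42 tags over a vehicle level of 11.6, beside 49.8 over 15.8 in the whole list.

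**Figure D2:**
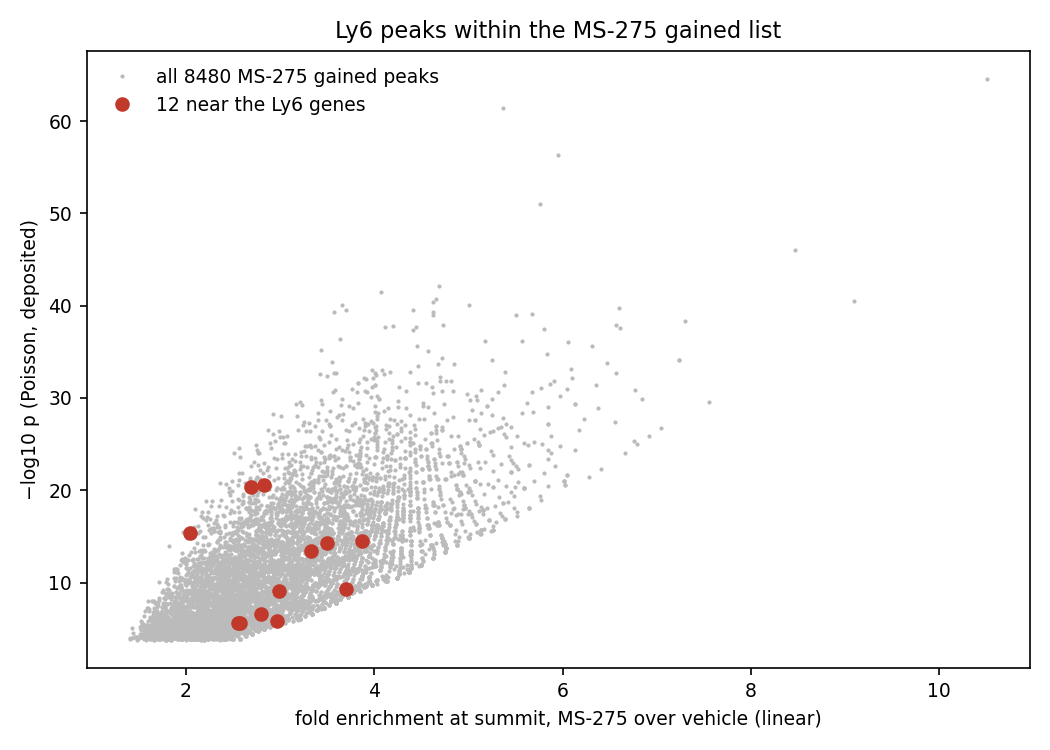
All 8480 MS-275 gained peaks by linear fold enrichment (horizontal axis) and −log10 p-value of the Poisson test (vertical axis), with the 12 peaks near the Ly6 genes as large circles. The Ly6 peaks lie inside the cloud, at medians of 2.90-fold and 11.3, and none is among its extremes.

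The order of the genes along the chromosome matched where the peaks inside the windows were. The 9 genes spanned 805 kb, and the peaks inside the windows all lay in the middle. They ran from 10.7 kb beyond the end of Ly6e to 2.06 kb before the start of Ly6g. Peaks of the span outside the windows, some of them before Ly6e, are given below. Ly6d, a marker of early lymphoid and epithelial cells (chr15:74762056-74763620), and Ly6k, a gene known from testis (chr15:74796874-74799986), had no peak in any list, and the nearest MS-275 gained peak was 82.8 kb from Ly6d and 118 kb from Ly6k. Ly6h, known from the nervous system (chr15:75551268-75567255), lay at the other end and had none within 398 kb. The genes without a peak were thus the 3 outermost of the 9.

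Ly6e, an interferon-induced gene expressed in many tissues (chr15:74955051-74959905, plus strand), had 1 MS-275 gained peak in its window, at chr15:74970604-74970821. This intergenic site lay 10.7 kb past the end of Ly6e and 8.71 kb from Ly6i, so it counted for both genes. MS-275 had 27.1 tags there over a vehicle level of 6.60, the lowest vehicle level of the 12 peaks (fold enrichment 3.70, −log10 p 9.29). It was a small site with a comparatively large ratio. Its fold enrichment was higher than that of 79.9% of the MS-275 gained peaks.

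Ly6i (chr15:74979534-74983430, minus strand) had the most peaks, 4 MS-275 gained and 2 MS-275 over CXD101, but none of them lay in the gene and 3 of the 4 were shared with the window of Ly6a. The strongest signal was the site shown above at chr15:74988809-74989047, in the exon of Gm37042, a transcript model of unknown function, 5.52 kb upstream of the Ly6i start. MS-275 had 153 tags there over a vehicle level of 74.2 (fold enrichment 2.05, −log10 p 15.4). This was the highest vehicle level and the lowest fold enrichment of the 12. A vehicle level is an upper estimate, so how open the site was in vehicle was not measured. The direct list held a peak with its summit 11 bp away, at chr15:74988831-74989037, where MS-275 had 173 tags over a CXD101 level of 99.4 at the depth of the CXD101 group (fold enrichment 1.73, −log10 p 11.1).

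A CXD101 level is known only where a direct peak passed, which at this MS-275 signal needs a CXD101 level under 114 at vehicle depth, so a value well below MS-275 was set by that limit. At vehicle depth the levels were 74.2 in vehicle and 87.4 in CXD101, against 153 tags in MS-275. CXD101 would have needed 111 tags to pass the limit of the CXD101 gained list. The ratio of CXD101 to vehicle was 1.18 and that of MS-275 to CXD101 was 1.74, with no replicate error on either.

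Ly6a (chr15:74994877-74998031, minus strand) had an MS-275 gained interval over its start, chr15:74997587-74998270, with 2 summits. One summit was in an exon, 364 bp inside the gene, with 27.1 tags over a vehicle level of 10.0 (fold enrichment 2.56, −log10 p 5.65). The other was 122 bp upstream, with 28.9 tags over 10.6 (2.57, 5.63). Their significance was low for the list, since 14.6% and 14.5% of the MS-275 gained peaks had a weaker p-value. The direct list held chr15:74997976-74998270, whose summit was 5 bp from the upstream one, with 33.8 MS-275 tags over a CXD101 level of 12.8 at CXD101 depth (2.52, 6.19). At vehicle depth the CXD101 level was 11.3 beside a vehicle level of 10.6, and a CXD101 gained peak would have needed 26 tags.

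Ly6c1 (chr15:75044018-75048830, minus strand), which encodes one of the forms of Ly-6C, had the same arrangement. The MS-275 gained interval chr15:75048586-75049159 held summits 9 bp and 205 bp upstream of the start. MS-275 had 29.7 tags over a vehicle level of 10.0 at the first (fold enrichment 2.79, −log10 p 6.60) and 22.7 over 7.0 at the second (2.97, 5.87). The direct peak chr15:75048823-75049078 had 37.8 MS-275 tags over a CXD101 level of 14 at CXD101 depth (2.59, 7.06), and its summit was 50 bp from the first. At vehicle depth this CXD101 level was 12.3 beside a vehicle level of 10.0, and a CXD101 gained peak would have needed 25 tags.

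The peaks over the starts of Ly6a and Ly6c1 could not be counted as separate observations. Only 34.5% of the 50-base words in the Ly6a interval and 23.4% of those in the Ly6c1 interval occurred once in the assembly, and 63.3% of the Ly6a words and 76.6% of the Ly6c1 words were also found in the other interval. The sequence printed above for Ly6c1 had 97.2% identity to its Ly6a copy. A read of this length from the shared words matches both genes, so reads of either gene can have been placed at the other. Which of the 2 starts gained signal, or whether both did, was not tested. The same limit held for the direct peaks, with 48.0% unique words at Ly6a and 9.66% at Ly6c1. The read length of the libraries and the handling of reads with several placements are not given in the sources used here.

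**Figure D3:**
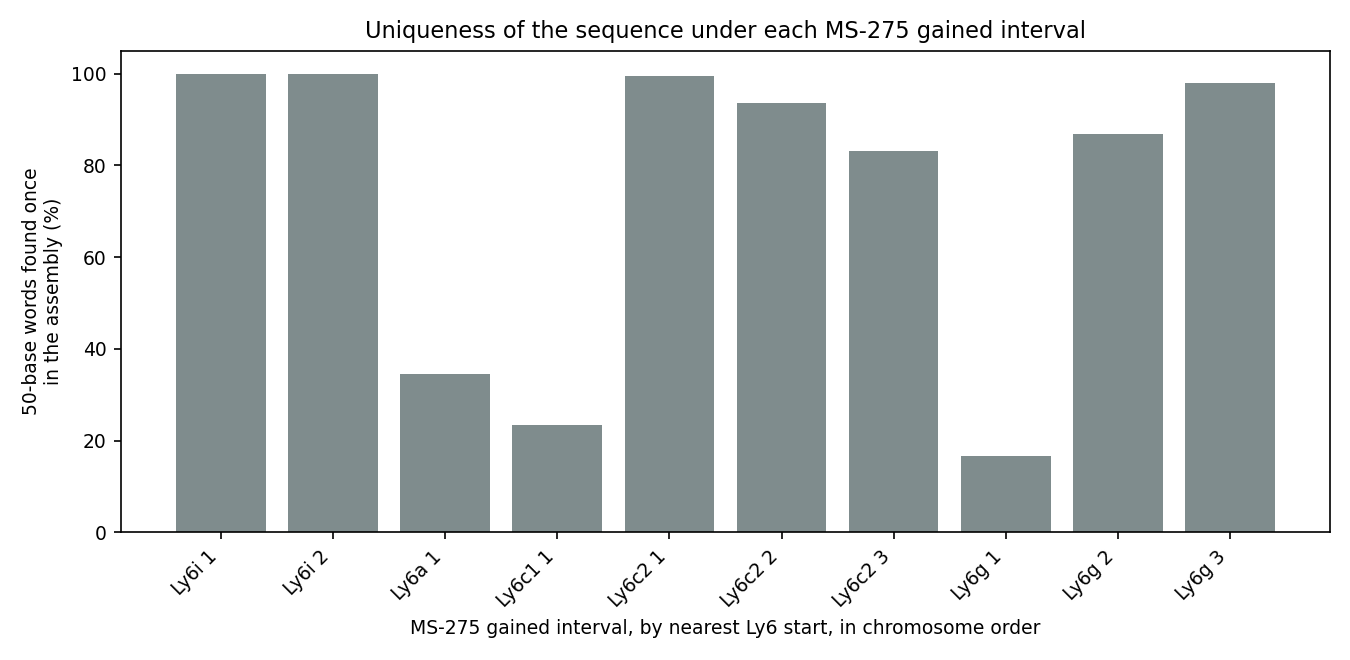
Bars give the percent of 50-base words that occur once in the mm10 assembly (vertical axis) for each of the 10 MS-275 gained intervals, in order along the chromosome and named by the nearest Ly6 start (horizontal axis). The intervals over the starts of Ly6a (34.5%) and Ly6c1 (23.4%) and the first one named for Ly6g (16.6%) stand under 40%, and the other 7 lie between 83.2% and 100%.

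Ly6c2 (chr15:75108158-75111970, minus strand), which encodes the other form of Ly-6C and is widely used as a monocyte marker gene, had a different pattern. It had 3 MS-275 gained peaks, none of them over its start, in a run 4.58, 4.91 and 5.54 kb upstream at chr15:75116446-75116663, chr15:75116783-75116986 and chr15:75117361-75117600. MS-275 had 51.6 tags over a vehicle level of 14.8 at the nearest (fold enrichment 3.33, −log10 p 13.4), 51.6 over 14 at the next (3.5, 14.2) and 45.5 over 11 at the farthest (3.87, 14.5). The farthest had the highest fold enrichment of the 12 peaks, above 84.3% of the list. These sequences were mostly unique, with 99.4%, 93.5% and 83.2% of 50-base words found once.

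No direct peak lay near Ly6c2, so these sites gave no CXD101 level. A CXD101 gained peak would have needed 32, 31 and 27 tags at the 3 sites, in the order above, and none was called. By the p-value limit alone, a direct peak would have passed at a CXD101 level under 30.8, 30.8 and 26.1, and none was called either. Whether CXD101 raised the signal at these sites was not tested. At Ly6c2 the direct lists thus held no difference between the inhibitors, which does not show that they act alike. Against vehicle, 3 MS-275 gained and 0 CXD101 gained peaks were called there.

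Ly6g (chr15:75155240-75159126, plus strand) had 3 MS-275 gained peaks, all upstream. At chr15:75152792-75153184, with its summit 2.13 kb before the start, MS-275 had 38.5 tags over a vehicle level of 12.2 (fold enrichment 2.99, −log10 p 9.08). The 2 far sites were chr15:75138002-75138217, 17.1 kb before the start, with 119 tags over 43.6 (2.69, 20.4), and chr15:75135312-75135523, 19.8 kb before it, with 108 tags over 37.6 (2.83, 20.6). The far sites had the lowest p-values of the 12, lower than those of 91.4% and 91.7% of the list. They were nearer to I830127L07Rik, a transcribed pseudogene, than to Ly6g, and the farther one lay 184 bp from it. RefSeq places the start of Ly6a2 at the start of this pseudogene, and the farther interval overlapped the Ly6a2 promoter as RefSeq gives it.

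The farthest Ly6g site shared the limit of the Ly6a and Ly6c1 starts. Only 16.6% of its 50-base words were unique, and copies of its repeated words lay nearest to Ly6c2. The RefSeq promoters of Ly6a2 and Ly6c2 were 97% identical over 300 aligned positions, and no peak of any list overlapped the Ly6c2 promoter. At the site 17.1 kb upstream 86.8% of words were unique, and at the site 2.13 kb upstream 98.0% were.

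A direct peak lay at chr15:75152659-75153163, over the near Ly6g site, with 23.9 MS-275 tags over a CXD101 level of 9.0 at CXD101 depth (fold enrichment 2.49, −log10 p 4.61). Its q-value was the weakest of the 4 direct peaks (−log10 q 1.91), and it was lost at a q-value of 0.01. The summits of the 2 lists were 363 bp apart, so the CXD101 level there, 7.91 at vehicle depth, and the vehicle level of 12.2 are from different positions and were not compared. The far sites had no direct peak. There, a CXD101 gained peak would have needed 72 tags (17.1 kb) and 64 tags (19.8 kb). By the p-value limit alone, a direct peak would have passed at a CXD101 level under 85.7 and 76.9. Neither kind of peak was called. The first limits are for tags at the summit and the second for a local level, so together they do not bound the CXD101 signal there. The limits were not used as bounds at the other sites without a direct peak either.

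**Figure D4:**
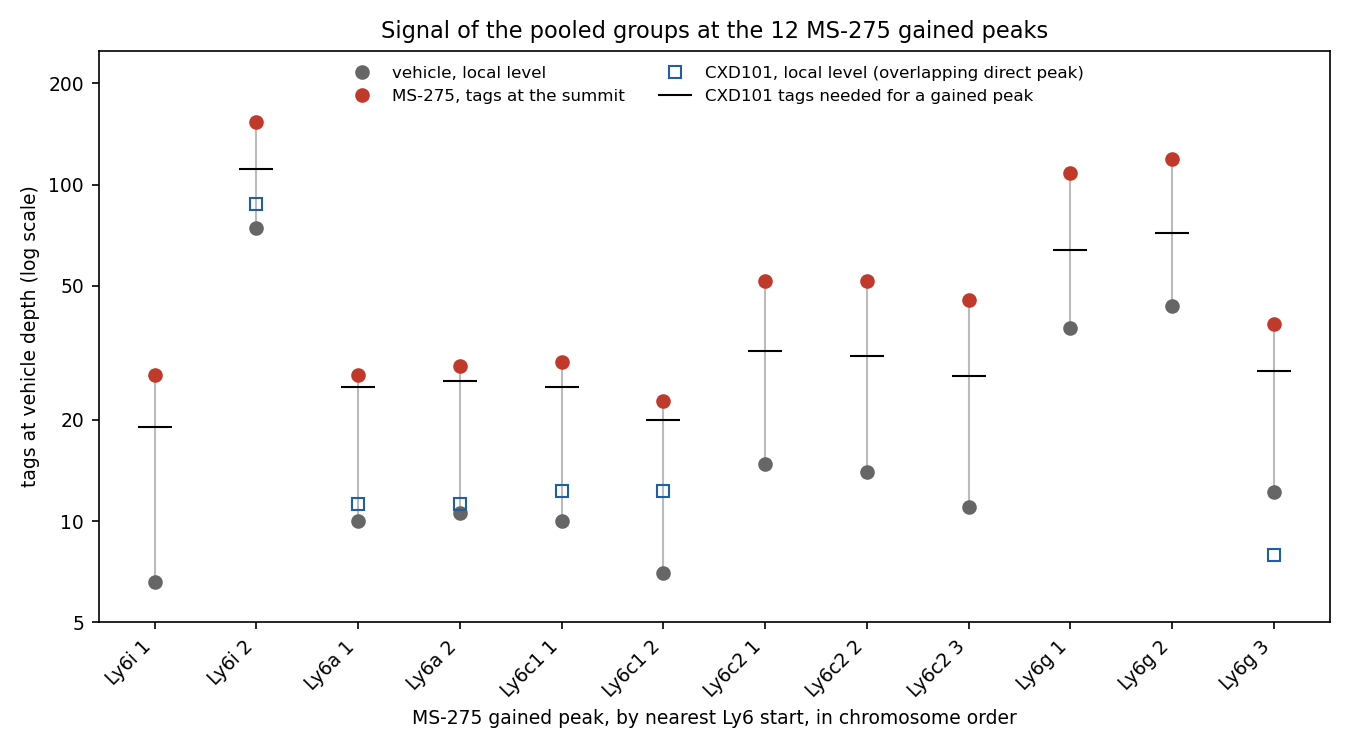
Signal at the 12 MS-275 gained peaks, in order along the chromosome and numbered within the nearest Ly6 start (horizontal axis), in tags at vehicle depth on a log scale (vertical axis). Grey circles are the vehicle level, red circles the MS-275 tags, open squares the CXD101 level of an overlapping direct peak, and black dashes the CXD101 tags a gained peak would have needed; each group is 1 pool of 2 libraries, so there are no error bars. The 6 squares come from 4 direct peaks, which pass only where CXD101 is low. This choice set their place under the dashes, except at Ly6i 2, where the direct limit of 114 lay above the dash at 111. The squares at Ly6a 1 and Ly6g 3 were measured 481 and 363 bp from the gained summit.

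Between the inhibitors, 6 of the 12 MS-275 gained peaks (50.0%) overlapped a direct peak, and 4 of the 4 direct peaks (100%) overlapped an MS-275 gained one. Both lists use the same MS-275 libraries, so this overlap is not independent evidence. Where a gained summit and a direct summit lay within 250 bp of each other, which was the case for 4 MS-275 gained peaks, the CXD101 level was 1.18, 1.06, 1.23 and 1.76 times the vehicle level. The values 1.23 and 1.76 both rest on the direct peak at the Ly6c1 start, whose summit lay 50 and 146 bp from the gained ones. The value 1.06 is from the Ly6a start, which shares sequence with that of Ly6c1, so it is no separate observation. At the 4 gained peaks the ratio of MS-275 to CXD101 lay between 1.74 and 2.70. These ratios exist only for sites that passed the direct test, which requires a low CXD101 level, and the 6 MS-275 gained peaks without a direct peak have none. They describe those sites and are no measure of the CXD101 response over the cluster. No CXD101 gained peak was called at any of them. Upstream of Ly6i, where the vehicle level was highest, a CXD101 rise of up to 1.5-fold over vehicle would have missed the CXD101 gained list. For the Ly6a and Ly6c1 starts the same held up to 2.45-fold to 2.86-fold, depending on the summit.

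The limit of 20 kb decided which peaks were counted. Just inside were the far Ly6g sites, with gaps of 19.7 and 17.0 kb to the gene. Just outside was chr15:75070693-75071034, 21.9 kb from Ly6c1, with 2 MS-275 gained summits of 2.81-fold and 2.26-fold, and chr15:74931015-74931232, 23.8 kb from Ly6e, with 108 tags over a vehicle level of 38.6 (2.76-fold). Over the whole span of the cluster with 20 kb added at each end there were 23 MS-275 gained, 6 MS-275 over CXD101 and 0 lost peaks of either inhibitor. Of these, 11 and 2 lay outside the windows. The most significant of them was chr15:74923328-74923550, 31.5 kb before Ly6e, with 90.1 MS-275 tags over 22.2 in vehicle (3.92-fold, −log10 p 27.1), above every peak inside the windows in both measures.

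Sequence motifs were searched on both strands within 150 bp of each summit. The AP-1 motif TGANTCA, bound by Fos and Jun proteins, was found at 3 of the 12 MS-275 gained peaks, at 15 bp and 9 bp from the deposited summit at the paired Ly6g sites printed above and 147 bp away at the farthest Ly6c2 site. It was found at 7.09% of all MS-275 gained peaks. The PU.1 motif GAGGAAGT, that of a master regulator of myeloid cells, was found at 2 of 12 (4.19% of the list), at the Ly6c1 start and the Ly6g site 17.1 kb upstream. The STAT motif TTCNNNGAA was found at 1 of 12 (9.67%), also at that Ly6g site. The C/EBP motif TTGCNNCAA, the interferon response motif GAAANNGAA and the RUNX motif TGTGGTTT were found at 0 of 12, beside 2.87%, 9.27% and 3.17% of the list. Several of these sites are copies of one another, and with 12 peaks none of the shares can be set apart from that of the list.

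RefSeq promoters, 250 bases before to 50 bases after a start in GRCm38.p6, were held for 3 of the 9 genes, Ly6c1, Ly6c2 and Ly6g, and not for Ly6a, Ly6d, Ly6e, Ly6h, Ly6i and Ly6k. They are shown because the Ly6c1 promoter overlapped a gained and a direct peak, whereas the promoters of its relatives Ly6c2 and Ly6g overlapped none. Only 23.4% and 9.66% of the words under these Ly6c1 peaks were unique, so reads of Ly6a can have been placed there. The lines give Ly6c1 at chr15:75048614-75048913 (minus strand), Ly6c2 at chr15:75111922-75112221 (minus strand) and Ly6g at chr15:75155079-75155378 (plus strand), each 5′ to 3′ along the gene. Capitals mark PU.1 matches (GAGGAAGT).
Ly6c1 promoter: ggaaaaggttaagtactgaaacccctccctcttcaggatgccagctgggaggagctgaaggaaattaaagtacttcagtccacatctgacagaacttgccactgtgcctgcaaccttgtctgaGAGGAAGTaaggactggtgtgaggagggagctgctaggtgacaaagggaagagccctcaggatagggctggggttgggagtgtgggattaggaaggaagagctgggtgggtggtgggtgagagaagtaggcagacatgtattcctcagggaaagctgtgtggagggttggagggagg
Ly6c2 promoter: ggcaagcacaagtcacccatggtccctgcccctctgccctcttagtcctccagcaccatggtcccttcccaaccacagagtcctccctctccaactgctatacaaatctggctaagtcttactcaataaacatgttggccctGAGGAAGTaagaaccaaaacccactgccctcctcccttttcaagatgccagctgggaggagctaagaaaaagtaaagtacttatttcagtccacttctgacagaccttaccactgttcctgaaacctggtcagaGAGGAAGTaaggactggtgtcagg
Ly6g promoter: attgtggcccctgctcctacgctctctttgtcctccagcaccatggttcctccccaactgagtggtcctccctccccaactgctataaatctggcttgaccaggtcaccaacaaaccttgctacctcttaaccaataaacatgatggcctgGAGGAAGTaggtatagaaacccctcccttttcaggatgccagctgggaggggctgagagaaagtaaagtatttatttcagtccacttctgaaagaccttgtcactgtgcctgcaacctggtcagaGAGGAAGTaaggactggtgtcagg

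The motif stood once in this Ly6c1 promoter and at 2 places each in those of Ly6c2 and Ly6g. The gained interval covered all of this Ly6c1 promoter, whereas the direct interval, chr15:75048823-75049078, covered only a part of it without the match. RefSeq gives each gene a further start, and the printed promoters of Ly6c1 and Ly6g are those with more matches. The other Ly6c1 promoter (chr15:75048788-75049087), which also overlapped the gained and direct peaks, held no match. The other Ly6g promoter (chr15:75155011-75155310) held 1. For comparison, 3.20% of the 32851 RefSeq promoters held it. Since the promoters are related in sequence, with 79.6% identity between Ly6c1 and Ly6c2 over 157 aligned positions and 76.8% between Ly6c2 and Ly6g over 306, the matches are not separate events. The match was present in promoters with a peak and without one. It was absent from the other Ly6c1 promoter and from the Ly6a2 promoter, which both overlapped a gained peak. The Ly6a2 promoter did so only at its upstream end.

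Other genes of the Ly6 and uPAR family served as a comparison from a fixed list. Of 31 names, 28 matched the annotation (Ly6a2, Ly6g2 and Ly6m did not), and 4 of them had an MS-275 gained peak, 14.3% beside 13.7% of all genes. These were Lypd6b with 102 tags over a vehicle level of 47.0 (2.15-fold), Lypd5 with 69.9 over 31.0 (2.22-fold), Cd177, a neutrophil surface protein, with 45.5 over 17.0 (2.58-fold), and Lypd4 with 44.6 over 13.2 (3.21-fold). Lypd5 also had the only MS-275 over CXD101 peak among them, and 0 of 28 had a lost or a CXD101 gained peak. The S100a genes on chromosome 3 are another cluster of related genes, among them the neutrophil markers S100a8 and S100a9. They had an MS-275 gained peak at 7 of 13 genes (53.8%) and a lost one at 1, for MS-275 and for CXD101 alike. Genes of a cluster share peaks between windows, so these counts are not of independent genes. By number of peaks in the 6 lists, 36 protein-coding genes elsewhere in the genome had exactly the counts of Ly6i, and the nearest to it in significance were Hnrnpf, Trib3 and Cnn3.

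Marker lists of the cells that a sort from tumor could hold were read under the same rule. Of all genes, 13.7% had an MS-275 gained peak, 1.95% an MS-275 lost one and 2.33% a CXD101 lost one. An MS-275 gained peak lay near 3 of 6 monocyte markers (Itgam, Cx3cr1 and Ly6c2), 4 of 8 neutrophil markers (Cxcr2, S100a8, S100a9 and Ly6g), 3 of 5 T-cell markers (Cd3d, Cd3e and Cd3g, neighbors that shared 1 peak), 1 of 5 macrophage markers (Mrc1), and 0 of 3 NK-cell, 0 of 3 B-cell and 0 of 4 hepatocyte markers. MS-275 lost peaks lay near 3 of 6 monocyte markers (Itgam, Cx3cr1 and F13a1), 1 of 8 neutrophil markers (Ltf) and 1 of 5 T-cell markers (Cd3g). CXD101 lost peaks lay near 2 of 6 monocyte markers (Itgam and Cx3cr1) and 1 of 5 T-cell markers (Cd3g). Ly6c2 and Ly6g stand in these lists as well and were picked for having peaks. Peaks are differences between groups, so the identity of the cells could not be checked against the level of any marker. The part of neutrophils in the signal near Ly6g was not tested.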

How the data were processed

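ATAC-seq libraries of sorted M-MDSCs were grouped by their treatment label. Per the labels and the study's methods, the authors aligned reads with Bowtie2 to mm10 and called peaks with MACS2 2.2.7.1 on pooled groups, with no model and a shift of 0, so summits need not stand at the transposase cut; by how far was not measured here. The deposited fold enrichments are linear ratios, and the deposited −log10 p-values and q-values are those of MACS2. The methods name a p-value limit, whereas the deposited lists stop at a q-value of 0.05. MACS2 scaled the deeper group down: the relative depth was 1.14 for MS-275 over vehicle, 1.14 for CXD101 over vehicle and 1.01 for MS-275 over CXD101. Reads per library were not analysed here.

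The Ly6 genes and all lists were chosen with earlier results of these data known. The text names the 9 genes with all their peaks, genes at or nearest to those peaks, and family or marker genes from fixed lists with a peak. For likeness, the 3 protein-coding genes over 1 Mb away nearest to the member with most peaks were named. Each summit counted as 1 peak. Treated tags were solved as whole numbers times the scaling factor, with a pseudocount of 1, and 100% of 1000 simulated peaks were recovered for each of 3 lists. The simulated peaks were made with the formula that was solved, so this checked only the arithmetic. Their control levels did not reach those at the site upstream of Ly6i or at the Ly6g site 17.1 kb upstream. In the real lists, 28 of the MS-275 gained and 2 of the MS-275 over CXD101 peaks had a second solution, and the one with the higher level was kept; none of the 16 Ly6 peaks had one. The 2 CXD101 over MS-275 peaks were not solved. Genes were those of GENCODE M21, sequence was mm10, and promoters were from RefSeq (GRCm38.p6). Overlap was at least 1 base. Words of 50 bases were counted on both strands of the assembly. No test across libraries was run, since only pooled lists were used. Other windows, thresholds, overlap rules, motif windows and a pseudocount of 0 were tried. Python 3.11.15, NumPy 2.4.6, pandas 2.3.3, SciPy 1.17.1, Biopython 1.88 and Matplotlib 3.10.9 were used.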

Additional observations from a re-analysis of the deposited data

Results flagged for a closer look

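Near the Ly6 genes there were 4 MS-275 over CXD101 peaks and 0 CXD101 over MS-275 peaks. The whole lists held 1650 and 2 peaks (4.71% and 0.00743% of all genes), so this split is not particular to the Ly6 genes. This is a difference between 2 treatments called on pooled libraries, with no replicate check. At these 4 peaks, upstream of Ly6i, at the starts of Ly6a and Ly6c1 and upstream of Ly6g, the fold enrichments were 1.73, 2.52, 2.59 and 2.49. The sequence under the Ly6a and Ly6c1 peaks was shared between these genes.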

How the results depend on the processing

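Of 98 results under alternatives, 84 stayed within the set margin (1.5 times for counts) and 14 moved. Many of the 84 were counts of 0 that stayed at 0, and a narrower window or a stricter threshold cannot raise a 0. The tally is therefore no measure of how stable the other results were. The 12 MS-275 gained peaks became 4 within the gene bodies alone, 7 with 5 kb and 23 with 50 kb either side, and the 6 genes became 2 (Ly6a and Ly6c1) with gene bodies alone. For the gene bodies the 4 MS-275 over CXD101 peaks and the 4 genes became 2 each. Among protein-coding genes the share with a peak was 18.8% for MS-275 gained, 2.93% for MS-275 lost, 0.97% for CXD101 gained, 3.65% for CXD101 lost and 6.68% for MS-275 over CXD101. The 6 MS-275 gained peaks that overlapped a direct peak became 2 with a reciprocal overlap of 50%. Motif matches were left at 2 of the 12 MS-275 gained peaks within 50 bp of the summit. The median fold enrichment rose from 2.90 to 3.06 with a pseudocount of 0. The lists with 0 Ly6 peaks stayed at 0 under each window and threshold tried. Among these settings, only the window of 50 kb could have added peaks.

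No paired analysis was possible because MACS2 compared whole groups and gave no peak a value for a single library; leaving out a replicate could not be done for the same reason. The lists hold only peaks that passed, so a site without a peak has no value.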
